A study of Mus musculus with 22 samples.

Results

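Starburst amacrine cells are the cholinergic interneurons of the retina, and 8 genes that mark them were followed through 22 single mouse retinal cells, each hybridised alone to an Affymetrix mouse expression array. The 8 genes were chosen by name from what is known of this cell type, and with earlier results of these data known. Chat, Slc18a3, Slc5a7 and Ache make, store, recycle and break down acetylcholine. Megf10 and Megf11 are cell surface receptors, and Sox2 and Fezf1 are transcription factors. Together these are 8 of 18193 genes and 9 of 45101 probe sets on the array. Megf11 has a pair of probe sets and each of the others a single one. The 22 cells comprised 6 amacrine cells (J6 of E16.5 and A4, B1, D1, F6 and G3 of P0), 13 ganglion cells and 3 photoreceptors. The ganglion cells were E4, F3 and F6 of E12.5, A3 of E13.5, D8 and E1 of E14.5, B1, B5 and C7 of E15.5, and A3, A6, C6 and F1 of P0. The photoreceptors were E1 and H1 of P0 and 1 adult rod.

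Per the labels, papain was used to dissociate the retinas and each cell was drawn into a pipette, so every cell had left its layer of the retina before it was profiled. No genotype or treatment is given, and the strain, CD1, is given for some cells only, among the amacrine cells for J6 alone. Cells were assigned to a type after profiling, from the profile itself. No animal is named, so cells of the same type and stage could share 1 animal, and a difference between them may be technical.

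As background, starburst cells release both acetylcholine and GABA. They drive the spontaneous cholinergic waves of the retina around birth and later supply the direction-selective inhibition of ganglion cells. They sit in a pair of mirror layers, an ON population in the ganglion cell layer and an OFF population in the inner nuclear layer. Acetylcholine is made by choline acetyltransferase (Chat), loaded into vesicles by the vesicular acetylcholine transporter (Slc18a3), and split in the synaptic cleft by acetylcholinesterase (Ache), after which choline is taken up again by the high-affinity choline transporter (Slc5a7). Megf10 and Megf11 are receptors through which starburst cells space themselves from their neighbours, Sox2 is a transcription factor of retinal progenitors and glia that starburst cells keep, and Fezf1 is a transcription factor known from the ON population.

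Slc18a3 lies within the annotated span of Chat, in the arrangement known as the cholinergic gene locus, and Sox2 lies within that of Sox2ot, a long transcript named for this overlap. The 250 bases before the annotated starts of 4 genes are shown here because Slc18a3 and Sox2 were detected in the same amacrine cells and Chat and Fezf1 were not. They are RefSeq sequences of GRCm38.p6, read 5′ to 3′ on the strand of the gene. Slc18a3 is at chr14:32464851-32465100 and Chat at chr14:32465910-32466159, both on the minus strand. Sox2 is at chr3:34649745-34649994 on the plus strand and Fezf1 at chr6:23248265-23248514 on the minus strand. Capitals mark the GC box (GGGCGG) and the homeodomain core (TAAT), each searched on both strands.
Slc18a3: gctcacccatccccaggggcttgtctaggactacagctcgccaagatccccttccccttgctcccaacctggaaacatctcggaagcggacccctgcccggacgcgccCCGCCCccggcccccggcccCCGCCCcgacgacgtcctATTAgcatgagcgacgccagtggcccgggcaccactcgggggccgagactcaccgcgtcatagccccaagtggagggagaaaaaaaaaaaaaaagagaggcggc
Chat: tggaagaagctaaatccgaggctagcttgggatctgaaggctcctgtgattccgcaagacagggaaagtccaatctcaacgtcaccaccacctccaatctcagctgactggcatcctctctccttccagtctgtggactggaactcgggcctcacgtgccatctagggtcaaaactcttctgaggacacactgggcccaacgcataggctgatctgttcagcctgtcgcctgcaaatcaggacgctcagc
Sox2: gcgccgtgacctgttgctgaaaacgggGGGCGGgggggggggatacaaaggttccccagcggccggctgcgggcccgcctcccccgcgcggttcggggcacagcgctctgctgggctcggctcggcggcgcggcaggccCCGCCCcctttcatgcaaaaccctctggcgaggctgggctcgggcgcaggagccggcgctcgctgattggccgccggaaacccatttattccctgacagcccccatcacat
Fezf1: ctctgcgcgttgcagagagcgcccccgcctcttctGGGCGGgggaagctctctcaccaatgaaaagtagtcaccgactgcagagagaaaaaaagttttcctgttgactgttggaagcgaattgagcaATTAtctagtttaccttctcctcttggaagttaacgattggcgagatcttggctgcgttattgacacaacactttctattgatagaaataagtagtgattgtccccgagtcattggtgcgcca
The window of Slc18a3 held 2 GC boxes and 1 homeodomain core, that of Sox2 held 2 GC boxes and no homeodomain core, and that of Fezf1 held 1 of each. The window of Chat held neither. Of the windows not shown, that of Ache, detected in no amacrine cell, held 4 GC boxes and no homeodomain core, with 73.6% G and C. That of Slc5a7, detected in no cell, held neither motif. A GC box was found in 32.74% and a homeodomain core in 54.92% of 32851 promoters of the same length. An E-box (CANNTG), found in 66.22% of them, was present in the windows of Chat (2 matches) and Slc18a3 (1 match), and a CRE half-site (TGACG), found in 17.77%, once in each of these. G and C made up 66.0% of the Slc18a3 window, 54.8% of that of Chat, 72.0% of that of Sox2 and 47.6% of that of Fezf1, against a median of 52.4% over all promoters. A match is a string of letters in a window and no measured site. The 4 genes shown were chosen after their values were seen, and a link of these motifs to detection was not tested.

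Signals are MAS5 intensities on a linear scale. A gene is called detected in a cell at a signal of 1000 or more (log2 9.97), and for means and tests a signal below 200 was set to 200 (log2 7.64), called the floor. The arrays of 21 cells were deposited at a 2% trimmed mean of 500. The array of P0 amacrine cell B1 was deposited at 18.1 and was multiplied by 27.6 here. Its values are given at that scale, with the deposited value beside those that a result rests on. As deposited, 127 genes reached 1000 in B1. Between 1517 and 4351 genes were detected per cell. The median signal over all probe sets was 197.7 in J6 and 192.1 in the adult rod and at most 79.1 in any other cell. Precision is limited by the number of arrays.

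The amacrine label was set against 14 measured amacrine markers, of which 3 (B1) to 7 (J6, A4 and G3) were detected in an amacrine cell. Tfap2b, an AP-2 transcription factor of amacrine cells, was detected in 6 of 6 amacrine cells (in B1 at 13878, or 502.8 as deposited) and in no other cell, and was higher than in ganglion cells by 6.15 ± 1.21 (adjusted p = 0.00292) and than in photoreceptors by 6.15 ± 1.45 (adjusted p = 0.00950) on the log2 scale (limma over all tested genes). Tfap2a, its paralog, was detected in 5 of 6 and in no other cell, and was higher than in ganglion cells by 4.02 ± 0.95 (limma, adjusted p = 0.0370). Because cells were named from their profiles, these markers are no independent check. Only genes detected in 3 or more cells were tested, and Tfap2b and Tfap2a entered through amacrine cells alone. A positive difference was thus fixed by this filter, and their p-values are descriptions. Slc32a1, the vesicular GABA transporter, and Slc6a9, the glycine transporter, were detected in 0 of 6 amacrine cells. Of 16 photoreceptor markers, 0 were detected in any amacrine cell. Of 14 ganglion cell markers, between 0 (A4) and 3 (J6) were detected. In the tests, Sncg and Ebf3 of the ganglion markers were lower than in ganglion cells, and 9 of the 10 tested photoreceptor markers (Crx, Nrl, Rbp3, Sag, Pdc, Rom1, Pde6b, Cdhr1 and Tulp1) and the glial gene Clu were lower than in photoreceptors. Ebf3 was detected in ganglion cells alone, and these photoreceptor markers other than Crx and Rom1 in photoreceptors alone, so the filter fixed their directions too. Of the lists for bipolar, horizontal, vascular and blood, lens and progenitor cells, no gene passed other than Tfap2b, which the horizontal cell list also holds.

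The 6 amacrine cells fell apart in how many of the 8 genes they held. The genes were chosen with earlier results of these data known, so this split is a description. J6 and F6 each held 5, namely Slc18a3, Megf10, Megf11, Sox2 and Fezf1. B1 also held 5, with Chat in place of Fezf1. A4, D1 and G3 held 0 of 8. In the deposited values B1 held 3 (Megf10, Megf11 and Sox2). Genes detected out of 18193 came to 3717 (20.43%) in J6, 2483 (13.65%) in B1 and 4131 (22.71%) in F6, against 1927 (10.59%) in A4, 2029 (11.15%) in D1 and 2971 (16.33%) in G3. J6 and F6, each with 5 of the 8 genes, had the most genes detected, and A4 and D1, with 0, the fewest. G3, with 0, and B1, with 5, lay between them. The count in B1 rests on the rescaling and was 127 as deposited. The part of array depth in the pattern was not tested.

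**Figure D1:**
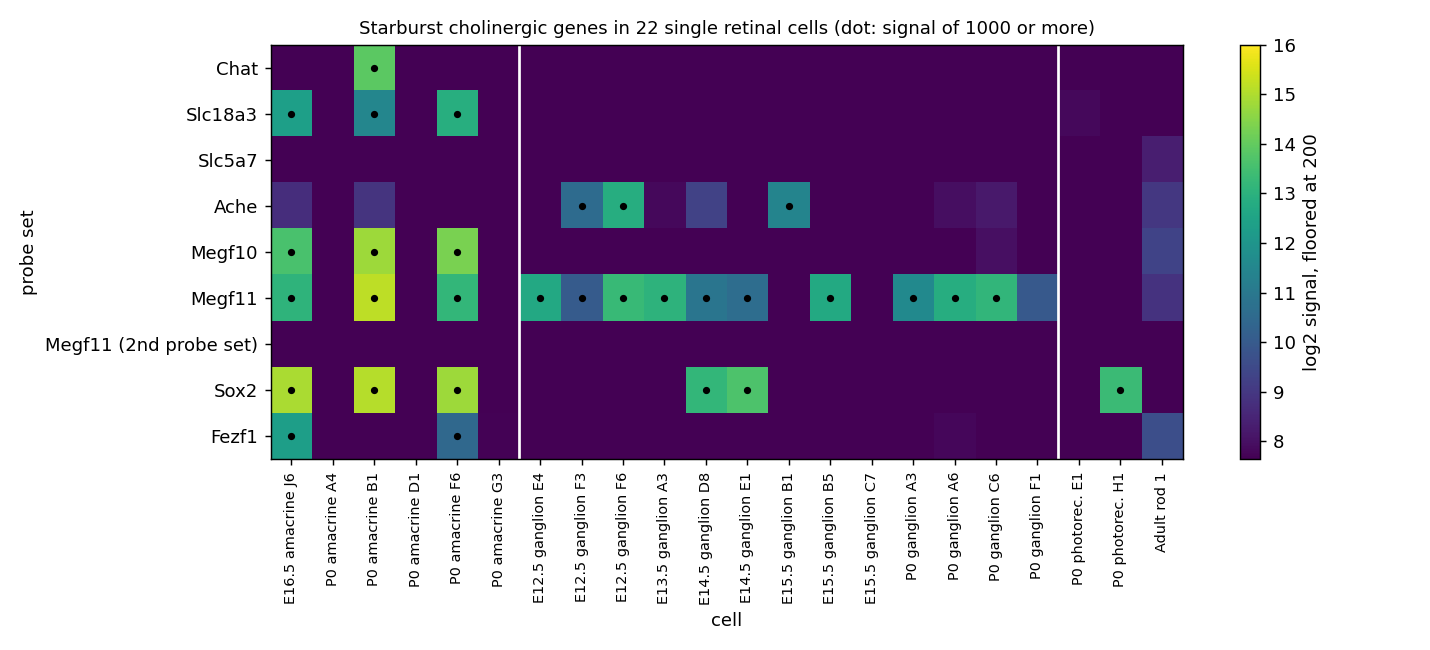
Heat map of log2 signal, floored at 200 (log2 7.64), for the 9 probe sets of the 8 genes (rows) in each of the 22 cells (columns), with white lines between amacrine cells, ganglion cells and photoreceptors and a dot where the signal was 1000 or more. Slc18a3 and Megf10 have dots in amacrine cells J6, B1 and F6 only, Megf11 also in 10 ganglion cells, and Sox2 also in both E14.5 ganglion cells and in P0 photoreceptor H1.

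Chat (probe set 1440070_at), the enzyme that makes acetylcholine, was detected in a single cell. Its signal was 15049 in P0 amacrine cell B1 (545.2 as deposited). In the other amacrine cells it was 53.31 in J6, 169.9 in A4, 45.68 in D1, 4.731 in F6 and 7.837 in G3. All 13 ganglion cells (6.765 to 76.35, median 15.18) and all 3 photoreceptors (3.824 to 36.14) were below the floor. B1 therefore stood alone, with 21 of 22 cells below 200. Since B1 was rescaled, its place on its own array is the measure that scaling does not touch: Chat was at the 98.2nd percentile of all probe sets there, and in the remaining 21 cells between the 6.7th percentile and, in A4, the 80.1st.

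Slc18a3 (probe set 1422203_at), the vesicular transporter encoded inside the Chat locus, was detected in 3 amacrine cells. Its signals were 5272 in J6, 2827 in B1 (102.4 as deposited) and 7586 in F6. They were 28.8 in A4, 40.61 in D1 and 14.35 in G3. The 13 ganglion cells spanned 6.692 to 188.6 (median 28.37) and the photoreceptors 20.15 to 224.4. The 3 positive cells were thus above every ganglion cell and photoreceptor, and the other 3 amacrine cells were not. J6 and F6 held the transporter at the 97.2nd and 97.5th percentiles of their arrays without a Chat signal above the floor, and B1, at the 93.0th percentile, held both genes.

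Slc5a7 (probe set 1421428_at), which takes choline back into cholinergic terminals, was detected in no cell. Its highest signal was 323.6, in the adult rod, and the remaining 21 cells were below the floor. The amacrine cells lay between 6.796 (G3) and 94.37 (B1). The cells that held Slc18a3 had Slc5a7 signals of 13.49 (J6), 94.37 (B1) and 16.43 (F6). With a single probe set and no detection calls in the deposited table, this gives only that no signal was measured above the floor in these amacrine cells.

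Ache (probe set 1422635_at), which hydrolyses acetylcholine, was detected in ganglion cells and not in amacrine cells. The amacrine signals were 425.2 in J6, 13.24 in A4, 476.7 in B1, 122.2 in D1, 70.74 in F6 and 21.38 in G3. Of the 13 ganglion cells (48.96 to 7419, median 226.9), 3 passed the threshold, with 1497 in F3 and 7419 in F6 of E12.5 and 2750 in B1 of E15.5. The photoreceptors spanned 5.129 to 511.2. Amacrine and ganglion cells overlapped.

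Megf10 (probe set 1429841_at), a receptor of starburst cell spacing, was detected in the 3 cells that held Slc18a3 and nowhere else. Its signals were 12421 in J6, 27898 in B1 (1011 as deposited) and 20581 in F6. They were 60.02 in A4, 56.07 in D1 and 12.92 in G3. The highest values outside the amacrine cells were 637.8 in the adult rod and 252.6 in P0 ganglion cell C6, and the median of the 13 ganglion cells was 19.2. The gap between the lowest positive cell and the highest remaining cell of all 22 was thus from 12421 to 637.8.

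Megf11, the paralog of Megf10, was detected in the same 3 amacrine cells but also in most ganglion cells. On the probe set 1458015_at its amacrine signals were 8723 in J6, 36900 in B1 (1337 as deposited) and 9247 in F6, against 9.698 in A4, 26.91 in D1 and 69.66 in G3. In ganglion cells it was detected in 10 of 13, with 6525, 1051 and 9903 at E12.5, 8409 at E13.5, 1882 and 1583 at E14.5, 6701 in B5 of E15.5, and 3155, 7452 and 9005 at P0. The 3 ganglion cells without it were E15.5 cells B1 (33.16) and C7 (152.2) and P0 cell F1, which at 994.1 lay just under the threshold. The photoreceptors were at 163.3, 1.766 and 462.2. Among these cells Megf11 therefore split the amacrine cells as Megf10 did, and did not set amacrine cells apart from ganglion cells. The other probe set, 1442867_at, was below the floor in all 22 cells, with a highest signal of 192.3, so the pair of probe sets disagreed and only the first is used.

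Sox2 (probe set 1416967_at), which starburst cells share with progenitors and glia, was detected in 6 cells. Its amacrine signals were 31318 in J6, 34281 in B1 (1242 as deposited) and 28154 in F6, against 2.397 in A4, 4.351 in D1 and 10.89 in G3. Outside the amacrine cells it was 9252 in D8 and 12986 in E1, both E14.5 ganglion cells, and 10393 in P0 photoreceptor H1. All 16 remaining cells of the 22 were below the floor. The lowest Sox2-positive amacrine cell was thus at 28154 and the highest Sox2-positive cell of another type at 12986.

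Fezf1 (probe set 1429991_at), a transcription factor known from ON starburst cells, was detected in 2 cells, J6 (5178) and P0 amacrine cell F6 (1409). It was 18.56 in B1, the remaining cell with Slc18a3, and 26.92 in A4, 80.99 in D1 and 208.3 in G3. The ganglion cells spanned 6.504 to 220.5, and the adult rod was at 805.5. At a threshold of 2000, J6 alone held Fezf1.

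**Figure D2:**
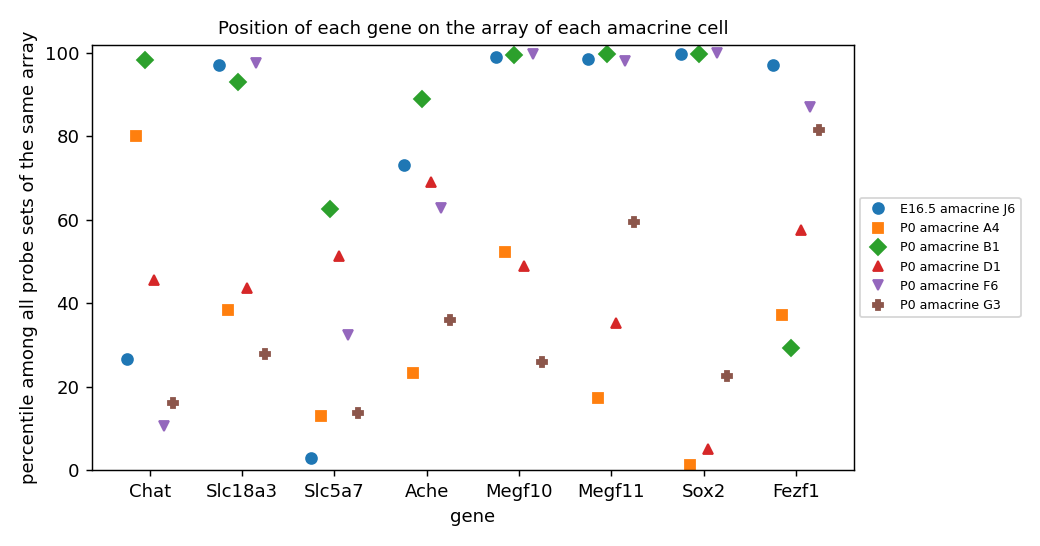
Percentile of each gene's probe set among all probe sets of the same array (y axis), which a scale factor cannot change, for the 8 genes (x axis) in the 6 amacrine cells (symbols). For Slc18a3, Megf10, Megf11 and Sox2 the symbols of J6, B1 and F6 lie between the 93.0th and 99.9th percentiles, apart from the other 3 cells, while Chat has such a place in B1 alone.

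Slc18a3, Megf10, Megf11 and Sox2 were thus each detected in exactly 3 of the 6 amacrine cells, and these were J6, B1 and F6 for all 4. Among all genes, 1234 were detected in exactly 3 of the 6 amacrine cells, and 192 of them (15.6%) in J6, B1 and F6. Of the 20 possible sets of 3 cells this one ranked second, after J6, F6 and G3 with 243 genes (19.69%), and A4, D1 and G3 ranked last with 16 (1.297%). Of the 192 genes, 15 were detected in no ganglion cell and 9 in neither a ganglion cell nor a photoreceptor. The 9 were Slc18a3, Megf10, Abcc8, Cmtm8, Cpne4, Dlg3, Mmp17, Moxd1 and Parm1. With B1 as deposited, 12 of 1182 such genes (1.015%) were detected in J6, B1 and F6, among them Megf10, Megf11 and Sox2. This set of cells was singled out after the values were seen, so no test is given.

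The 3 cells that held these genes came from both stages, J6 from E16.5 and B1 and F6 from P0. At E16.5 there is the single cell J6, so stage and cell cannot be told apart. At P0, 2 of 5 amacrine cells held Slc18a3, Megf10, Megf11 and Sox2. Set against the 4 ganglion cells of P0, the 5 amacrine cells of P0 had a mean log2 signal of 10.41 against 7.73 for Megf10, 10.56 against 7.64 for Sox2, 9.46 against 7.64 for Slc18a3 and 8.89 against 7.64 for Chat. Megf11 ran the other way, at 10.26 in amacrine and 11.90 in ganglion cells. Fezf1 (8.22 and 7.68), Ache (7.89 and 7.87) and Slc5a7 (7.64 in both) lay closer together. This sets 1 type-and-stage sample against 1 and has no p-value.

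Whether the genes differ between cell types was read from a linear model on the 7183 genes that 3 or more cells held. Cells were averaged on the log2 scale into 9 type-and-stage samples, 2 of amacrine cells, 5 of ganglion cells and 2 of photoreceptors. The fit was made with limma, with Benjamini-Hochberg adjustment over all 7183 genes, and errors after a difference are its standard errors. Of the 8 genes, 5 entered the fit, and Chat, Slc5a7 and Fezf1 were detected in too few cells. Slc18a3 and Megf10 entered through amacrine cells J6, B1 and F6 alone, so a positive difference was fixed by the filter, and their ranks and p-values are descriptions. Genes below the floor in a group are held at log2 7.64, so a difference against such a group depends on the floor.

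Against ganglion cells, 0 of the 5 genes passed, while 2 of 7183 genes (0.0278%) passed as higher in amacrine cells and 3 as lower. Megf10 was at 12.00 ± 2.26 (SD, n = 2 samples) in amacrine and 7.66 ± 0.04 (SD, n = 5 samples) in ganglion samples, a difference of 4.34 ± 1.11 that ranked 5th of 7183 (limma, adjusted p = 0.0780). Slc18a3 was at 10.91 ± 2.06 and 7.64 ± 0.00, a difference of 3.27 ± 0.85 that ranked 20th (limma, adjusted p = 0.0846). Both genes were higher in 3 of 6 amacrine cells than in all 13 ganglion cells, and the SD was wide in amacrine samples, over E16.5 and P0. The standard errors do not rest on these SDs. With infinite prior degrees of freedom they come from the variance trend over all tested genes. Sox2 was at 12.75 ± 3.10 and 8.80 ± 2.58, a difference of 3.95 ± 1.39 that ranked 7th (limma, adjusted p = 0.895). Megf11 differed by 0.27 ± 1.47 and Ache by -0.37 ± 0.94 (limma, adjusted p = 0.999 for both), and the direction of Megf11 turned in other settings, for example to -0.21 with B1 as deposited. The median of the 5 genes was 3.27, which is the Slc18a3 value itself, and that of all tested genes 0.06. The filter favours Slc18a3 and Megf10, so nothing is read from these medians.

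Megf10 is the value closest to the threshold, and its call depends on processing. It passed after quantile normalization, at 5.05 (limma, adjusted p = 0.0111), and with each cell taken as a sample, at 3.27 (limma, adjusted p = 0.0351), where p-values are too small if cells share an animal. It also passed when A4, D1, G3 or the adult rod was left out (limma, adjusted p between 0.0316 and 0.0460). A4, D1 and G3 were below the floor for Megf10, so leaving any of them out raises the amacrine mean. Megf10 did not pass with B1 as deposited (limma, adjusted p = 0.229), without the variance trend (0.357) or with no filter on dim genes (0.370). It also failed with a floor of 50 (0.06995) or 500 (0.160), the mean over probe sets (0.0974) and the median over cells. Leaving out J6, B1 or F6, alone or B1 and J6 together, left Megf10 and Slc18a3 in too few cells for a test, as did B1 as deposited for Slc18a3. Over all tested genes, 283 of 7183 (3.94%) had an unadjusted p under 0.05, and nothing is read from the 5 genes against it, since the filter favours them.

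Against photoreceptors, 0 of the 5 genes passed, while 9 of 7183 genes (0.125%) passed as higher in amacrine cells and 32 as lower. Slc18a3 differed by 3.23 ± 1.01 (limma, adjusted p = 0.119), Megf10 by 3.52 ± 1.33 (limma, adjusted p = 0.284), Sox2 by 3.68 ± 1.66 (limma, adjusted p = 0.436) and Megf11 by 3.42 ± 1.76 (limma, adjusted p = 0.522). Ache differed by -0.01 ± 1.12 (limma, adjusted p = 1.0), a sign that turned in other settings. The photoreceptor samples were at 7.69 ± 0.06 for Slc18a3, 8.48 ± 1.18 for Megf10, 8.25 ± 0.85 for Megf11 and 9.07 ± 2.02 for Sox2 (SD, n = 2 samples each). The median of the 5 genes was 3.42 and that of all tested genes 0.51, so the genes stand beside a background that is itself shifted. Because the filter favours Slc18a3 and Megf10 here too, nothing is read from these medians. Over all tested genes, 697 of 7183 (9.7%) had an unadjusted p under 0.05. Both comparisons use the same 2 amacrine samples.

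Ordered by mean level, amacrine samples came first for Slc18a3, Megf10 and Sox2, and ganglion and photoreceptor samples lay within 1 photoreceptor SD of each other for all 3. For Megf11 the order was amacrine, ganglion (11.40 ± 1.41) and photoreceptor, and amacrine and ganglion samples did not differ beyond their spread. For Ache all 3 types lay between 8.31 and 8.68, within the spread of each. For Fezf1 the order was amacrine (10.28 ± 2.91), photoreceptor (8.65 ± 1.42) and ganglion (7.65 ± 0.02), with the amacrine and photoreceptor spreads overlapping. The photoreceptor place rests on the adult rod (9.65), below the detection threshold, with the P0 photoreceptors at the floor (7.64). The amacrine mean rests largely on J6 (12.34), with the P0 amacrine cells at 8.22.

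**Figure D3:**
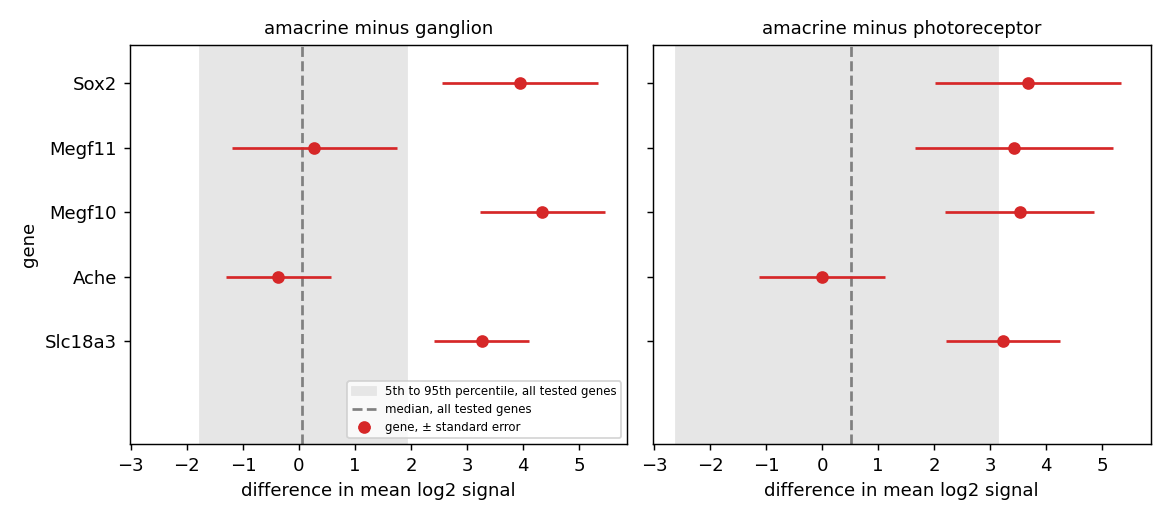
Difference in mean log2 signal between amacrine and ganglion samples (left) and between amacrine and photoreceptor samples (right) for the 5 tested genes, as points with 1 standard error, over the median (dashed line) and the 5th to 95th percentile (grey) of all 7183 tested genes. Slc18a3, Megf10 and Sox2 lie right of the grey band on both sides, Megf11 does so against photoreceptors only and Ache in neither, and none of the 5 passed the adjusted threshold.

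Sox2 marks progenitors and Müller glia as well as starburst cells, so markers of those cells were counted beside it. Of 16 progenitor and cell cycle markers, 1 was detected in J6 (Pcna), 1 in B1 (Ccnd1) and 2 in F6 (Ccnd1 and Pcna). In the Sox2-positive cells of other types there were 6 in ganglion cell D8, 11 in ganglion cell E1 and 7 in photoreceptor H1, with Sfrp2, Ccnd1 and Notch1 in all 3. The mean log2 signal over these markers was 8.16 in J6, 8.15 in B1 and 8.29 in F6, and 9.70 in D8, 11.86 in E1 and 9.69 in H1. D1, an amacrine cell without Sox2, had 5 of the 16 and a mean of 9.72. Of 13 Müller glia and astrocyte markers, 2 were detected in J6 (Glul and Fabp7), 1 in B1 (Glul) and 2 in F6 (Glul and Dkk3), against 4 in D8, 4 in E1 and 6 in H1. Cells without Sox2 reached similar counts, with 4 in amacrine cell D1 and 3 each in E12.5 ganglion cell F3, E13.5 ganglion cell A3, P0 ganglion cell F1 and the adult rod. Sox9, a factor of progenitors and Müller glia, was detected in the adult rod alone. It was thus missing from D8, E1 and H1 as from every amacrine cell, and does not set the Sox2-positive cells apart. Both E14.5 ganglion cells also held lens markers, 4 of 7 in D8 and 5 of 7 in E1, and the amacrine cells 0 of 7.

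The Sox2 difference rests on few cells: without B1 and J6, an alternative chosen after the data were seen, it was 0.63 against ganglion cells and 0.36 against photoreceptors. Sox2ot, the transcript whose span holds Sox2, was at 17433 in J6, 21606 in B1 (782.7 as deposited) and 26948 in F6. It was below the floor in the other amacrine cells. In the Sox2-positive cells of other types it was 1185 in D8, 2.696 in E1 and 3.778 in H1. Sox2 without a Sox2ot signal above the floor was thus seen in E1 and H1 and in no amacrine cell.

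**Figure D4:**
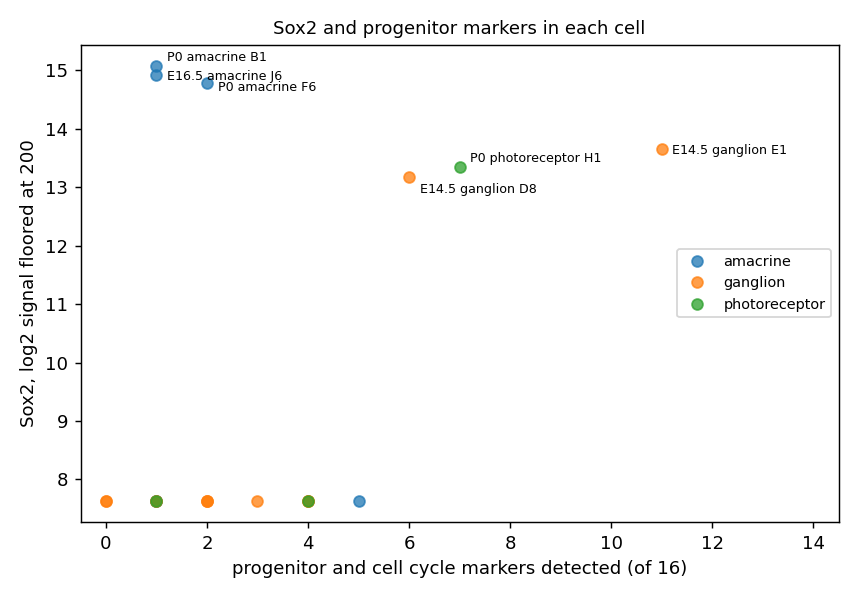
Sox2 signal (y axis, log2, floored at 200) against the number of 16 progenitor and cell cycle markers detected (x axis) in each of the 22 cells, coloured by cell type, with the 6 cells above the detection threshold named. The 3 Sox2-positive amacrine cells have 1 or 2 of these markers, the 3 Sox2-positive cells of other types 6 to 11.

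Genes that supply or act on acetylcholine were set beside the 8 genes. Of 17 such genes, 16 were measured and 11 tested, 0 passed in either direction in either comparison, and their median differences were 0.40 against ganglion cells and 0.01 against photoreceptors. Acly, which supplies acetyl-CoA, was detected in 6 of 6 amacrine cells (5719 in J6 to 35016 in B1) and in 12 of 13 ganglion cells. The others detected in at least 2 amacrine cells were Pdha1, Pla2g6 and Gdpd1 (4 each), Pcyt1a and Slc33a1, the acetyl-CoA transporter (3 each), and the choline kinase Chka and Pcyt1b (2 each). None of these was detected in J6, B1 and F6 to the exclusion of the other amacrine cells. Over all genes, 192 of the 1234 detected in exactly 3 amacrine cells (15.6%) were. Here only Pcyt1a and Slc33a1 were detected in exactly 3, so nothing is read from this. Pla2g6, a phospholipase, was detected in J6 (2401), B1 (4301, or 155.8 as deposited), F6 (4280) and G3 (8429), and differed from ganglion cells by 2.46 ± 1.36 (limma, adjusted p = 0.999). Prima1 and Colq, which anchor acetylcholinesterase, and the choline transporter-like genes Slc44a2 and Slc44a4 were detected in 0 of 6 amacrine cells.

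Of 25 genes for acetylcholine receptors and their accessory proteins, 22 were measured and 7 tested. Of these 7, 0 passed in either direction, with median differences of -0.16 and -0.01. Chrna4, a nicotinic subunit, was detected in J6 (2143), A4 (3382), B1 (1949, or 70.59 as deposited) and F6 (1085). Chrnb2, its usual partner, was detected in J6 (4045), A4 (20477) and D1 (6802), with 975.7 in B1. Chrna3, the nicotinic subunit typical of ganglion cells, was detected in J6 (2135) and F6 (1596) and in 9 of 13 ganglion cells. Tmem35a, a chaperone of nicotinic receptors, was detected in D1 and F6. The muscarinic receptors measured, Chrm1, Chrm3 and Chrm4, were detected in no cell of any type. None of these genes was detected in J6, B1 and F6 alone among the amacrine cells. Only Chrnb2 was detected in exactly 3 amacrine cells, so nothing is read from this.

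Among genes known from starburst cells or cholinergic neurons, other than the 8, Isl1, Sox2ot and Plxna2 were detected in J6, B1 and F6 and in no other amacrine cell. Over all genes, 192 of the 1234 detected in exactly 3 amacrine cells (15.6%) were. This list was chosen with earlier results of these data known, so nothing is read from this. Of the 21 genes in the list, 20 were measured and 13 tested, and 0 passed in either direction. The median differences were 0.54 against ganglion cells and 1.20 against photoreceptors. Isl1, a LIM-homeodomain factor of starburst, ganglion and bipolar cells, was detected in J6 (28561), B1 (30027, or 1088 as deposited) and F6 (22799), with 2.184 in A4, 8.714 in D1 and 62.15 in G3. It was also detected in 10 of 13 ganglion cells, and its other probe set split the amacrine cells in the same way. Plxna2, a plexin receptor of starburst dendrites, was detected in J6 (3264), B1 (5040, or 182.6 as deposited) and F6 (6793), in no ganglion cell and in 1 of 3 photoreceptors, and differed from ganglion cells by 2.84 ± 1.05 (limma, adjusted p = 0.960). Its ligand Sema6a, known from ON starburst cells, was detected in B1 (1589, or 57.55 as deposited) and F6 (5849), with 746.1 in J6. Sox2ot differed from ganglion cells by 4.35 ± 1.12 (limma, adjusted p = 0.0780).

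Further genes of this list ran across the split or against it. Gad1, which makes GABA, was detected in 6 of 6 amacrine cells, from 3857 in J6 to 41177 in A4, while Gad2 was detected in A4 (41557) and G3 (12122) only. Rnd3, a small GTPase known from OFF starburst cells, was detected in A4 (86868), D1 (81968), G3 (20832) and J6 (1988), with 77.0 in B1 and 50.02 in F6. The potassium channel gene Kcnc1 was detected in D1 (23665) and F6 (1034). The chloride importer Slc12a2 was detected in J6 (2397) and F6 (1349), and the chloride exporter Slc12a5 in D1 (49658) and G3 (2364). Lhx8, Gbx1 and Zic1, factors of cholinergic neurons elsewhere in the nervous system, were detected in no cell.

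The 3 amacrine cells with 0 of the 8 genes shared another transcription factor. Nr4a2, an orphan nuclear receptor known from other amacrine types, was at 9743 in A4, 80934 in D1 and 23587 in G3, and at 173.3 in J6, 14.89 in B1 and 7.614 in F6. It was also detected in 1 ganglion cell, F6 of E12.5. Of the 1234 genes detected in exactly 3 amacrine cells, 16 (1.297%) were detected in A4, D1 and G3. Nr4a2 was chosen here after its values were seen. Over all amacrine samples it differed from ganglion cells by 1.89 ± 0.79 (limma, adjusted p = 0.999). Of 20 markers of other amacrine types, Nr4a2, Gad1 and, in F6, Th were the only ones detected in an amacrine cell.

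Genes with the most similar profiles over the 22 cells were ranked by Pearson's r of log2 signal among tested genes, as a description. The 22 points share the arrays, and for Slc18a3, Megf10 and Sox2 most of them lie at the floor (18, 17 and 16). For Ache 11 and for Megf11 7 lie there. For Megf10 the nearest genes were Cmtm8 (r = 0.995), Dlg3 (0.993), Moxd1 (0.973), Slc18a3 (0.97) and Scube2 (0.968), and for Slc18a3 they were Cmtm8 (0.972), Parm1 (0.971), Megf10 (0.97), Sox2ot (0.965) and Cpne4 (0.955). For Sox2 they were Clic4 (0.82), Sox2ot (0.805), Tex264 (0.788), Ankrd28 (0.781) and Sat1 (0.778). For Megf11 they were Pgm2l1 (0.801), Slc25a36 (0.776), Rtn1 (0.742), Git1 (0.74) and Ube2d1 (0.713), and for Ache Crnde (0.876), Irx3 (0.814), Trak1 (0.794), Ankrd24 (0.787) and Ngfr (0.781). Between the 8 genes, r was 0.736 for Slc18a3 and Sox2, 0.723 for Megf10 and Sox2, 0.5 for Megf10 and Megf11 and -0.035 for Slc18a3 and Ache. The median r over tested genes lay between 0.008 (Ache) and 0.075 (Megf11).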

How the data were processed

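The RNA of each cell was copied with an oligo dT primer, tailed and put through 35 cycles of PCR, per the labels' protocols. The authors deposited linear signal intensity from MAS5, per the submitters' processing notes, without detection calls, a genome build or scanner settings given in the sources used here. In all, 45101 probe sets were listed, 64 of them controls. A probe set annotation gave 1 symbol for 34958, several for 932 and none for 9211, and 34754 found their gene number in the RefSeq table, from which names were taken. The probe set with the highest mean stood for a gene. Of 18193 genes, the 7183 detected in at least 3 cells were tested in R 4.3.3 with lmFit and eBayes (with a variance trend) of limma 3.58.1, on 6 residual and infinite prior degrees of freedom, with a threshold of 0.05 on the adjusted p. Intensities were floored at 200 and log2 transformed. The fit was tested on simulated data.

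All 8 genes are described on every probe set. Of the other lists, genes that passed a comparison were named, and for acetylcholine handling, acetylcholine receptors and starburst companions also those detected in at least 2 amacrine cells. For each of the 8 genes detected in at least 3 cells, the 5 genes of highest Pearson correlation were named. Some further genes at or below the threshold are named as examples, chosen after their values were seen. The 8 genes and all lists were chosen with earlier results of these data known. Alternatives changed the floor, the filter on dim genes, the choice of probe set, the scaling, the averaging of cells, the variance trend and the detection threshold, and left out each cell in turn. Another pair, which left out several cells at once, and the count of genes shared by J6, B1 and F6 with B1 as deposited were added after the data were seen. Promoter sequences of Megf10 and Megf11 were not used here.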

Additional observations from a re-analysis of the deposited data

Results flagged for a closer look

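Among 7 values of the 8 genes examined across cells of 1 group, 2 stood far from the others by Dixon's criterion on log2 signals floored at 200. Chance flags about 1 in 20 groups of freely spread values. Here the other cells lay at or next to the floor, where any single detected cell stands apart, so that rate does not apply. The Chat signal of 15049 in P0 amacrine cell B1 lay apart from the other 4 P0 amacrine cells by a gap that made up 1.0 of the range (critical value 0.71 for 5 cells). This is the array deposited on another scale, and the deposited signal was 545.2, below the detection threshold and above that of every other cell. The Fezf1 signal of 1409 in P0 amacrine cell F6 lay apart by 0.979 of the range. The part of amplification of single-cell cDNA in either value was not tested.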

How the results depend on the processing

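Against ganglion cells, the count of passing genes was 5. It was 1 with a floor of 500, 31 with no filter on dim genes, 1 with the mean over probe sets, 2 with B1 as deposited, 10 after quantile normalization, 0 with the median over cells, 22 with each cell as a sample, 0 without the E14.5 ganglion cells and photoreceptor H1, 3 without B1 and J6, and 1 to 9 with single cells left out. Against photoreceptors it was 41, then 62 with a floor of 500, 20 with the mean over probe sets, 0 with the median over cells, 90 with each cell as a sample, 11 without the E14.5 ganglion cells and H1, 11 without B1 and J6, and 2 (without J6) to 47 with single cells left out. The alternatives that left out several cells were chosen after the data were seen, and the first removes every Sox2-positive cell outside the amacrine group. The cause of these shifts was not tested.

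The Megf11 difference against ganglion cells turned to -0.12 with a floor of 50, -0.21 with B1 as deposited, -0.90 with the median, -0.51 with each cell as a sample and -2.38 without B1 and J6, and ran from -1.15 (without J6) to 0.68 with single cells left out. It was -0.09 without F6 and -0.34 without B1. The Ache difference against photoreceptors turned to 0.06 with a floor of 50 and 0.23 after quantile normalization, and ran from -0.43 to 0.67 (without the adult rod). Neither was ever past the threshold. Of 306 differences of the tested genes under alternatives, 7 passed, all of Megf10 and against photoreceptors only after quantile normalization (4.94, limma, adjusted p = 0.0312), and 15 turned sign. The Slc18a3 difference lay between 2.24 and 4.33 in all alternatives that could test it. Each of these kept J6, B1 and F6, the only cells that held Slc18a3, so its positive sign was fixed in advance. Nothing is read from that sign. Against ganglion cells the adjusted p of Slc18a3 (limma) was between 0.0545 and 0.193 with single cells left out. In the other settings it was higher than in the main fit, from 0.1 after quantile normalization to 0.536 with a floor of 50 and 0.933 without the variance trend. It was highest with the median over cells. Without J6, 1 amacrine sample is left and is assumed to vary like the other types, and the Sox2 difference falls to 1.76 and 1.49.

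The detection counts in amacrine cells changed for Chat (0 with B1 as deposited), Slc18a3 (2 with B1 as deposited), Ache (1 after quantile normalization) and Fezf1 (1 at a threshold of 2000 and after quantile normalization). The median over all tested genes against ganglion cells moved from 0.06 to -0.10 with B1 as deposited. No paired analysis was possible because the cell numbers pair no samples across groups. A signal under the floor bounds a level and does not show absence, and the 22 arrays limit every comparison.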
